A study of Mus musculus with 6 samples.

Results

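The transcripts described here are those of Il10 and of the genes around it on mouse chromosome 1, together with the IL-10 receptor chains and known regulators of Il10. They are 10 of the 16281 genes with counts. Il10, Il24, Fcmr, Mapkapk2 and Dyrk3 were selected from one stretch of chromosome 1 because their read counts were higher after LSD1 inhibition in these same samples, so for these 5 genes the values between groups are a description and carry no test. Il10ra, Il10rb, Maf, Nfil3 and Ahr were chosen by their known role, and their differences were tested across all genes. The samples were CD8+ T cells from the spleens of OT1 mice, a C57BL/6 strain with the transgene Tg(TcraTcrb)1100Mjb, whose T cells carry a single receptor for an ovalbumin peptide. All cultures were activated for 48 h with antibodies against CD3 and CD28 and IL-2 (20 ng/ml), and were then expanded with IL-2 for 3 days. The 3 GSK samples received GSK2879552 (GSK), an irreversible inhibitor of the histone demethylase LSD1, at 0.5 μM through activation and expansion, and the 3 Veh samples received the vehicle. The study's methods name 3 separate mice, without saying whether cultures of the same number came from the same mouse, and the age and sex of these mice are not given in the sources used here.

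IL-10 is a cytokine that dampens immune responses. It binds a receptor built of a specific chain, IL-10RA, and a chain shared with related cytokines, IL-10RB, which pass the signal through the kinases JAK1 and TYK2 to STAT3. T cells make it under strong or repeated stimulation, and in CD8+ T cells it is known from effector cells at sites of infection. Il10 shares its locus with genes of related cytokines, Il19, Il20 and Il24, and with the genes of the immunoglobulin receptors Fcmr, Fcamr and Pigr.

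The counts of the 6 samples summed to between 18288447 and 19846720, so that a single read was worth 0.0506 to 0.0544 CPM (reads per 1e6 of the sample's scaled total). The smallest p that an exact permutation test (two-sided) of 1 gene in 3 and 3 samples allows is 0.1, so tests come only from the model fitted across all genes, and they measure the spread between these samples. A call needed an adjusted p below 0.05 together with a change of more than 1.5-fold, which 6.32% of the 11698 genes tested reached, 2.22% as higher and 4.09% as lower in GSK. By the adjusted p without the limit on fold, 32.1% of genes passed. For 46.7% of genes the samples of the groups did not overlap, with 23.7% higher and 23% lower in GSK. The CD8 T cell markers Cd3d, Cd3e, Cd3g, Cd8a, Cd8b1, Cd2 and Cd5 summed to 2333 to 2466 CPM in Veh and 2158 to 2314 CPM in GSK, slightly less in every GSK sample. Single markers went both ways. By the adjusted p (edgeR), Cd3d, Cd3e, Cd3g and Cd5 were lower (log2 fold change -0.16, -0.23, -0.38 and -0.50) and Cd2 was higher (0.15). Cd2 did not pass in 4 of 11 alternatives and Cd3d in 1. Cd8a (0.069) and Cd8b1 (-0.11) did not pass. Cd4 had 9 to 34 reads per sample. In bulk RNA, fewer cells that make a transcript and less of it per cell cannot be told apart.

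Il10 (Entrez gene 16153) occupies bases 131019845 to 131024970 of chromosome 1 (build GRCm38, plus strand), with no other annotated gene over it. Its normalised read count was 2.502, 3.65 and 2.68 CPM in Veh replicates 1 to 3 and 15.5, 9.72 and 14.4 CPM in GSK replicates 1 to 3. Every GSK sample was above every Veh sample, and the lowest GSK sample stood 2.66-fold above the highest Veh sample. The mean went from 2.94 ± 0.617 CPM (SD, n = 3) to 13.2 ± 3.09 CPM (SD, n = 3), a fold change of 4.48 (log2 fold change 2.16, with a standard error, SE, of 0.21). These values rest on 46 to 68 reads per Veh sample and 192 to 296 reads per GSK sample. By exact 95% binomial intervals, which cover counting error only, Il10 took at most 4.65 parts per 1e6 of the counts in the highest Veh sample and at least 8.35 in the lowest GSK sample. These limits describe the precision of single samples, and are no test between the groups, since Il10 was chosen on this contrast. Without any single sample, the log2 fold change of Il10 lay between 2.03 and 2.35.

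Il24 (Entrez gene 93672) encodes another cytokine of the IL-10 family, which signals through receptors that contain IL-20RB. It lies on the minus strand from 130882074 to 130887411, 132.4 kb to the left of Il10. Its level was 2.83, 3.00 and 2.42 CPM in the Veh samples and 8.40, 4.55 and 4.80 CPM in the GSK samples. The groups did not overlap, but GSK replicate 1 stood well above the other GSK samples. The fold change was 2.15 (log2 fold change 1.10, SE 0.25), and 1.70 without GSK replicate 1. Il10, too, was highest in GSK replicate 1 and lowest in GSK replicate 2.

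**Figure D1:**
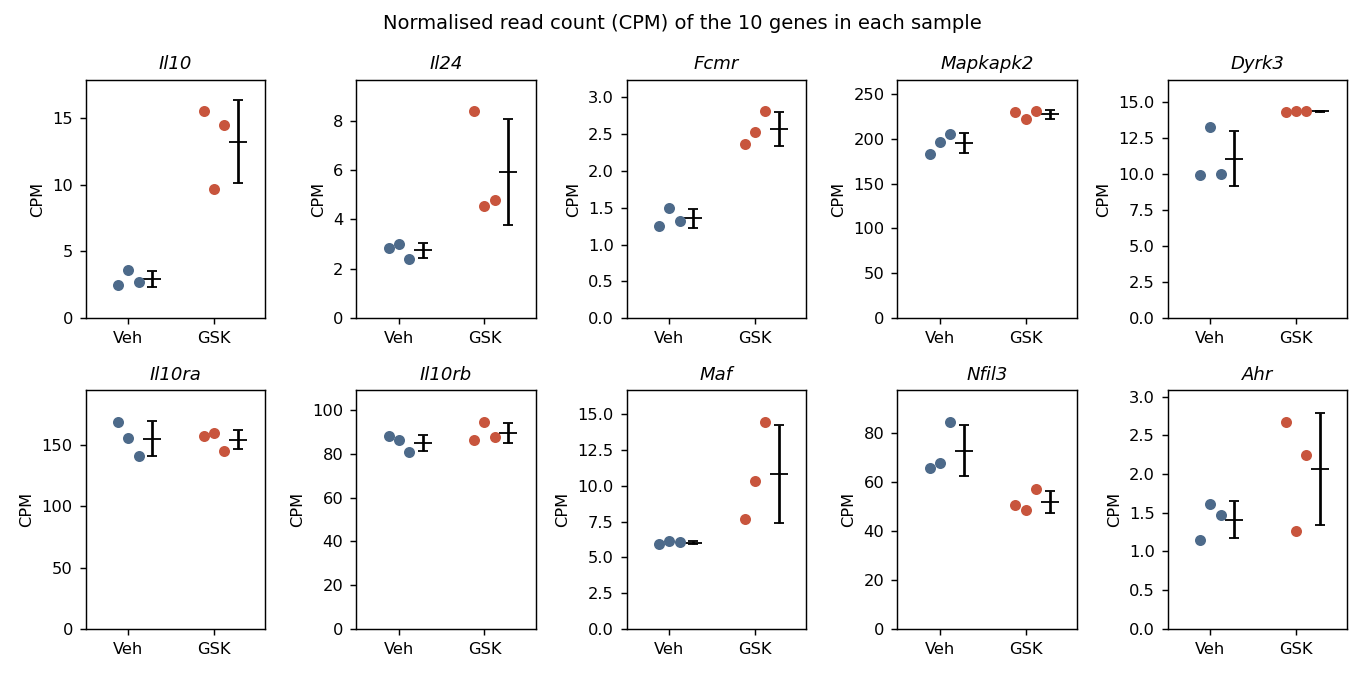
Normalised read counts (CPM, linear axes from 0) of the 10 genes, 1 point per sample and replicates 1 to 3 from left to right, with the mean and SD of each group beside the points. The GSK samples lie above the Veh samples for the 5 chromosome 1 genes and Maf, and below them for Nfil3. For Il10ra, Il10rb and Ahr the groups overlap.

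Fcmr (Entrez gene 69169) encodes the Fc receptor for IgM, best known from B cells and also made by T cells. It lies on the plus strand from 130865777 to 130880790 and ends 1283 bases from the end of Il24, which faces it on the other strand. Its level was low in every sample, with 1.25, 1.502 and 1.31 CPM in Veh and 2.36, 2.53 and 2.82 CPM in GSK. These were 23 to 28 reads in Veh and 45 to 54 reads in GSK, without overlap. The fold change was 1.89 (log2 fold change 0.92, SE 0.24), and the log2 value stayed between 0.85 and 1.00 when any single sample was left out.

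On the other side of Il10, the differences were smaller. Mapkapk2 (Entrez gene 17164, 131053700 to 131097871, minus strand) lies 28.7 kb to the right of Il10 and encodes MK2, a kinase downstream of p38 that acts on the stability and translation of cytokine messenger RNAs. It was abundant, at 183, 197 and 205 CPM in Veh and 230, 222 and 231 CPM in GSK. The groups were close but apart (fold change 1.17, log2 fold change 0.22, SE 0.048). Dyrk3 (Entrez gene 226419, 131128441 to 131138234, minus strand) encodes a kinase that helps to dissolve cellular condensates. It was at 9.90, 13.2 and 9.98 CPM in Veh and at 14.3, 14.4 and 14.3 CPM in GSK. Its groups were separated only narrowly, since Veh replicate 2 came close to the GSK samples (fold change 1.30, log2 fold change 0.38, SE 0.12). The annotated region of Mapkapk2 also holds small predicted genes, so its counts are uncertain to that extent.

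The stretch from Fcmr to Dyrk3 spans 272.5 kb, and within it the difference was largest at Il10 itself. Il19, between Il24 and Il10, had 0 to 3 reads in every sample, at or under the floor of 3 reads (0.152 to 0.163 CPM), so a difference was not detectable at this depth. Il20 was not analysed here. Of the 26 other annotated genes within 500 kb of Il10, 8 had enough reads to be tested. They are what remained of the window once the 5 genes that were higher in GSK had been taken out, so that their counts and median are partly fixed by that selection and are given as a description. At both limits, 0 of the 8 were called by edgeR, where 6.32% of all genes tested were, and 0 by DESeq2. In edgeR, 3 had an unadjusted p under 0.05, as did 5026 of the 11698 genes tested. The median log2 fold change of the 8 was -0.090, against -0.0039 over all genes tested.

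Of the 8, Pfkfb2 passed the adjusted p without the fold limit in edgeR. It encodes an enzyme that sets the level of a glycolysis activator, and went from 23.4, 18.6 and 18.7 CPM in Veh to 15.2, 14.8 and 13.9 CPM in GSK, a fall by 0.47 on the log2 scale (SE 0.10, adjusted p = 0.0046, edgeR). Its region holds Yod1, which had a log2 fold change of -0.13 (adjusted p = 0.43, edgeR). Pigr, the next gene to the left of Fcmr, had 0.11 (SE 0.27, adjusted p = 0.78), and Eif2d, the next to the right of Dyrk3, had 0.078 (SE 0.052, adjusted p = 0.28). Farther right, Rassf5 had 0.020 (adjusted p = 0.76), Ikbke -0.27 (adjusted p = 0.052) and Srgap2 -0.15 (adjusted p = 0.061). Ikbke passed with DESeq2 (adjusted p = 0.0096), with RLE size factors (0.049) and without GSK replicate 2 (1.7e-04), and Srgap2 passed with no filter on low counts (0.043) and without GSK replicate 2 (0.0046). AA986860, with few reads, had -0.049 with an SE of 0.51. The regions of Eif2d and Rassf5 overlap each other, and those of AA986860, Ikbke and Srgap2 overlap predicted genes.

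**Figure D2:**
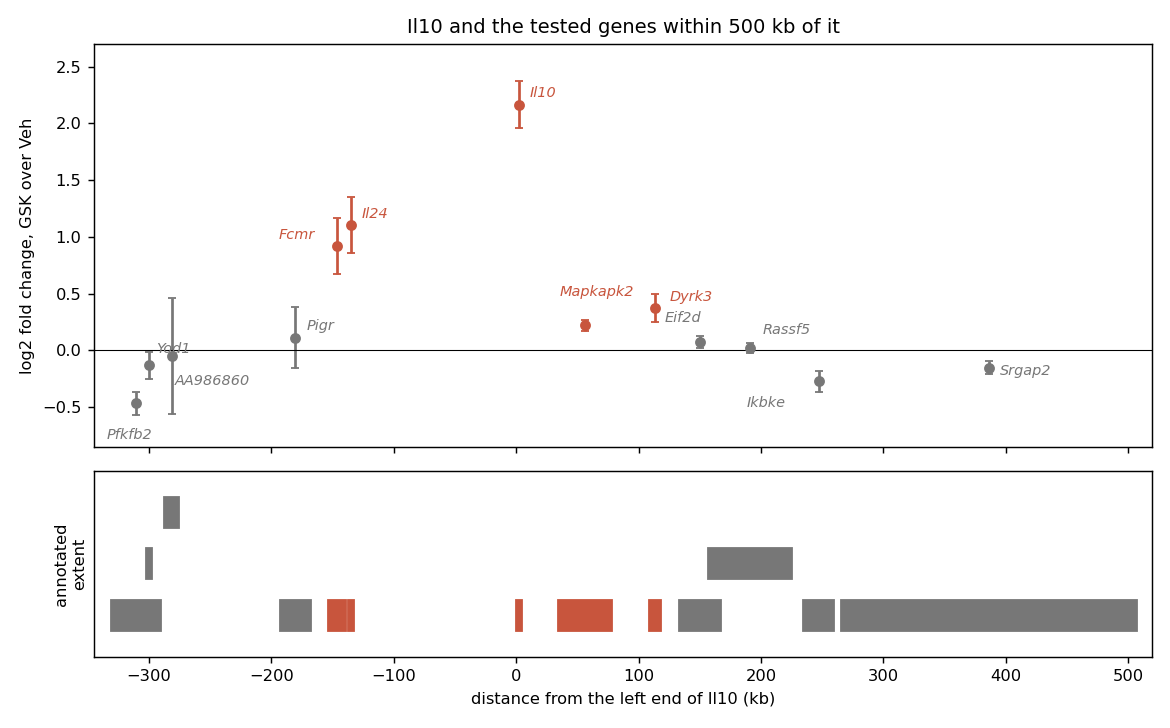
Log2 fold change of GSK over Veh with its standard error (upper panel) at the midpoint of each gene, and the annotated extent of each gene (lower panel), against the distance in kb from the left end of Il10. The 5 chromosome 1 members (red) lie above 0, with Il10 at 2.16, Il24 at 1.10 and Fcmr at 0.92, while the 8 other genes tested (grey) lie between -0.47 and 0.11.

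The RefSeq promoter table used here (GRCm38.p6) holds 4 of the 10 genes, Fcmr, Mapkapk2, Dyrk3 and Nfil3. It has no entry for Il10, Il24, Il10ra, Il10rb, Maf and Ahr. The 250 bases before the start of the 3 chromosome 1 genes with an entry are shown, since these genes neighbour each other and were higher together. They come from chr1:130865527-130865776 on the plus strand for Fcmr, and from chr1:131097844-131098093 and chr1:131138235-131138484 on the minus strand for Mapkapk2 and Dyrk3. Distances are counted from the start that this table uses, which lies slightly inside the gene as printed above for Mapkapk2, and farther inside for Nfil3. Each is written 5′ to 3′, with matches to the searched motifs in capitals.
Fcmr: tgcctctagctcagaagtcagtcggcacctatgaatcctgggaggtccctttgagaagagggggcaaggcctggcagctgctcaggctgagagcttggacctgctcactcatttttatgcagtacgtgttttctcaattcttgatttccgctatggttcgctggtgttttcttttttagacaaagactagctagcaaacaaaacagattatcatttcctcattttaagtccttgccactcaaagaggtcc
Mapkapk2: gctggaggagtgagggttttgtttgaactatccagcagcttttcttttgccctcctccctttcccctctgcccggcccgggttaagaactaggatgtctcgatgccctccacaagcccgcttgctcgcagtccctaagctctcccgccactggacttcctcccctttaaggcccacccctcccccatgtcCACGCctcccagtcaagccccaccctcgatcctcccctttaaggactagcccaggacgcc
Dyrk3: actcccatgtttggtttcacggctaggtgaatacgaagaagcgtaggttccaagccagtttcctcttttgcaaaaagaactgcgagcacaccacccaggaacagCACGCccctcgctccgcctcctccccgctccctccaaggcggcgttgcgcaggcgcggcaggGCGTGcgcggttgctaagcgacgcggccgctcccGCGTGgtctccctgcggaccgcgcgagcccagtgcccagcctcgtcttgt

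Both strands were searched for the letters known to be bound by regulators of Il10 or by factors named below, TGCTGA (MAF), TTANGTAA (NFIL3), GCGTG (AHR), TGANTCA (AP-1), TGACGTCA (CREB), TTCNNNGAA (STAT), GGTGTGA (T-box factors) and AATCAC (GFI1). Only GCGTG was found. It occurred once before Mapkapk2, on the strand opposite to the gene, beginning 60 bases from the start, and at 146, 84 and 50 bases before Dyrk3, where the match at 146 is on the opposite strand. No match overlapped another. Of all 32851 promoter windows of this length, 28.2% hold GCGTG. The other letters are found in 16.1% (TGCTGA), 9.14% (AATCAC), 7.02% (TTCNNNGAA), 6.75% (TGANTCA), 3.33% (GGTGTGA), 2.06% (TTANGTAA) and 1.55% (TGACGTCA) of windows, and were not in the windows of Fcmr, Mapkapk2, Dyrk3 or Nfil3. The windows differed in base composition, with a GC content of 46.4% for Fcmr, 60.4% for Mapkapk2 and 64.8% for Dyrk3, against a median of 52.4% over all windows.

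Neither receptor chain of IL-10 passed the test. Il10ra (Entrez gene 16154, chromosome 9, 45253837 to 45269149, minus strand) encodes the chain that binds IL-10, and it was abundant at 169, 156 and 141 CPM in Veh and 157, 160 and 145 CPM in GSK. The groups overlapped fully, with a log2 fold change of -0.0083 (SE 0.064, adjusted p = 0.93, edgeR), and its sign changed when Veh replicate 1 or GSK replicate 3 was left out. Il10rb (Entrez gene 16155, chromosome 16, 91406157 to 91425834, plus strand) encodes the chain shared with the receptors of IL-22 and the lambda interferons. It was at 88.0, 86.1 and 80.8 CPM in Veh and at 86.4, 94.7 and 87.5 CPM in GSK, again with overlap (log2 fold change 0.076, SE 0.054, adjusted p = 0.31, edgeR). A microRNA gene and a pseudogene lie within the region of Il10ra, and a predicted protein-coding gene overlaps Il10rb.

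Of the 3 regulators among the members, 1 rose, 1 fell and 1 did not pass. Maf (Entrez gene 17132, chromosome 8, 115703253 to 115706894, minus strand) encodes c-MAF, a bZIP factor that activates Il10 in several T cell subsets. The Veh samples lay close together at 5.93, 6.12 and 6.04 CPM, and the GSK samples were spread over 7.66, 10.3 and 14.5 CPM, all above them. The fold change was 1.80 (log2 fold change 0.84, SE 0.20, adjusted p = 0.0092, edgeR). Without GSK replicate 3, the highest, the fold change was 1.49, under the limit for a call, with an adjusted p of 0.019. The sample with the most Maf was not the one with the most Il10, since Maf was lowest and Il10 highest in GSK replicate 1.

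Nfil3 (Entrez gene 18030, chromosome 13, 52967209 to 52982878, minus strand) encodes a bZIP factor known to promote Il10 expression in helper T cells. It had 65.8, 67.7 and 84.8 CPM in Veh and 50.6, 48.4 and 57.0 CPM in GSK. All GSK samples were below all Veh samples, and Nfil3 fell by 0.48 on the log2 scale (SE 0.10, adjusted p = 0.0067, edgeR), less than 1.5-fold. Ahr (Entrez gene 11622, chromosome 12, 35497979 to 35534989, minus strand) encodes the aryl hydrocarbon receptor, which acts with c-MAF on Il10 in regulatory T cells. It had only 21 to 51 reads, at 1.14, 1.61 and 1.47 CPM in Veh and 2.68, 1.27 and 2.24 CPM in GSK. The groups overlapped because GSK replicate 2 was among the Veh samples (log2 fold change 0.54, SE 0.32, adjusted p = 0.21, edgeR). Maf and Ahr are overlapped by non-coding genes on the opposite strand, so that their counts are uncertain where strand was not used in counting.

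Counted over all 10 genes, 4 met the limits for a call (Il10, Il24, Fcmr and Maf), where 6.32% of all genes did, and 7 had groups that did not overlap, where 46.7% did, 23.7% as higher and 23% as lower. The selection of the 5 chromosome 1 genes on this contrast fixes most of that count, so nothing is read from it. For these 5 genes, meeting the limits is no test. The other 5 genes gave 1 call.

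The levels of the 10 genes differed by a wide margin, and were compared per length, as CPM per kb of annotated exon. The lengths are those of all exons of a gene in GENCODE M21, which may not be the annotation used for counting. In Veh, Mapkapk2 was highest at 64.1 ± 3.66 CPM per kb (SD, n = 3), followed by Il10ra at 44.4 ± 4.06 and Nfil3 at 35.9 ± 5.15, whose samples overlapped, and by Il10rb at 22.3 ± 0.985. Dyrk3 followed at 3.48 ± 0.601, above Il10 at 2.25 ± 0.471 and Il24 at 1.98 ± 0.217, whose samples overlapped. Fcmr followed at 0.781 ± 0.0752, and Ahr was lowest at 0.228 ± 0.0389. Maf stood at 0.732 ± 0.0114, but its place in the order is uncertain, since the exon length used for it (8.241 kb) is longer than the whole extent of the gene printed above, and a shorter length would raise its level.

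In GSK, the order changed in the middle. Il10 stood at 10.1 ± 2.36 CPM per kb (SD, n = 3), above Dyrk3 at 4.51 ± 0.0148 and Il24 at 4.27 ± 1.55, whose samples overlapped. Mapkapk2 at 74.8 ± 1.65, Il10ra at 44.1 ± 2.23, Nfil3 at 25.7 ± 2.21 and Il10rb at 23.5 ± 1.18 remained the 4 most abundant, and the last pair now overlapped. In both groups, the receptor chains were thus present at a higher level than the cytokine.

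**Figure D3:**
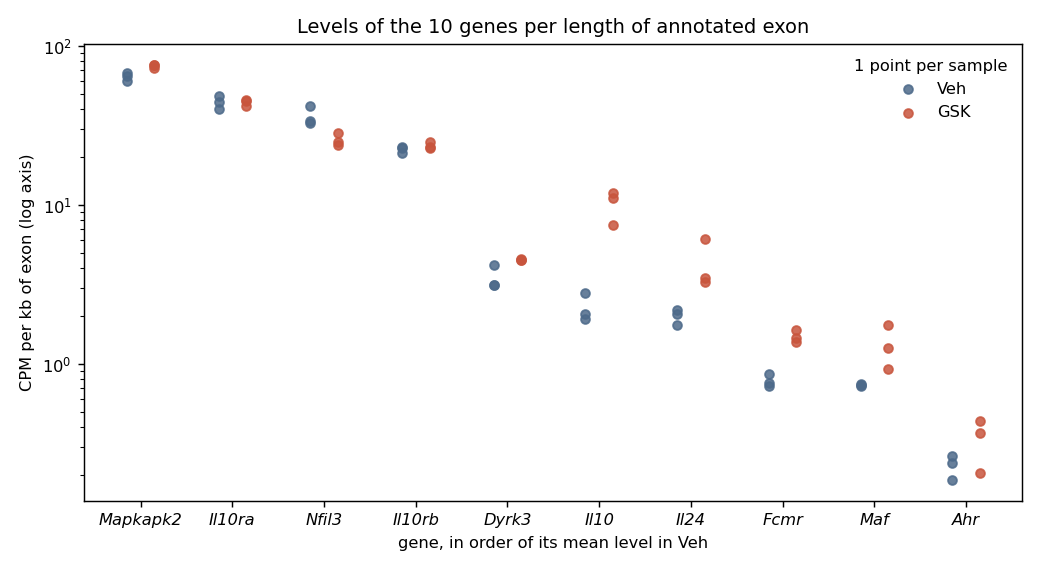
Level of each of the 10 genes in CPM per kb of annotated exon (log axis), 1 point per sample, with the genes in order of their mean in Veh. Il10 lies below Dyrk3 in Veh, at 2.25 against 3.48, and above it in GSK, at 10.1 against 4.51.

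The question of whether other genes of the pathway differed was taken to lists drawn up by role. Of the IL-10 signalling list, which holds kinases, STAT factors, feedback inhibitors and known IL-10 target genes, all 20 genes were tested. By the adjusted p without the fold limit, 8 were higher and 4 lower (16.6% and 15.5% of all genes). At both limits, 1 was called, as lower (4.09% of all genes). The median log2 fold change was 0.051, against -0.0039 over all genes tested. The called gene was Ddit4, an inhibitor of mTORC1 that IL-10 is known to induce in macrophages. It fell from 253, 247 and 267 CPM in Veh to 159, 157 and 155 CPM in GSK (log2 fold change -0.70, SE 0.044, adjusted p = 4.3e-07, edgeR).

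The following genes of the same list are given for their role, chosen after their values were seen. Stat3, the main factor downstream of the receptor, had a log2 fold change of -0.059 (SE 0.041, adjusted p = 0.30, edgeR). Jak1 had -0.12 (SE 0.085, adjusted p = 0.35), and Tyk2 fell by 0.19 on the log2 scale (SE 0.046, adjusted p = 0.0088, edgeR). Socs3, a feedback inhibitor and a standard readout of STAT3 signalling, was at 27.6, 27.6 and 24.8 CPM in Veh and at 24.8, 23.2 and 17.9 CPM in GSK. The groups met at 24.8 CPM, and Socs3 did not pass (log2 fold change -0.28, SE 0.11, adjusted p = 0.069, edgeR), although it did with no filter on low counts (adjusted p = 0.048) and without GSK replicate 1 (0.041). Cish, a feedback gene better known from STAT5, rose by 0.53 on the log2 scale (SE 0.068, adjusted p = 2.3e-04, edgeR), and Socs1 by 0.36 (SE 0.070, adjusted p = 0.0024). The other genes of the list past the adjusted p went both ways. Bcl3 rose by 0.44 (adjusted p = 0.0046, edgeR), Etv6 by 0.47 (5.4e-04) and Etv3 by 0.35 (0.0014). Socs2 rose by 0.28 (0.0030), Zfp36 by 0.27 (0.0025) and Pim1 by 0.11 (0.042). Il4ra fell by 0.39 (0.017) and Stat5b by 0.16 (0.018). Pim1 did not pass in 8 of 11 alternatives, Il4ra in 4 and Stat5b in 2. Apart from Ddit4, the genes past the adjusted p changed by less than 1.5-fold. Cish passed this limit without Veh replicate 2 (0.60).

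Of the other cytokines and receptors of the IL-10 family, 5 of 12 had counts and 1, Il20rb, had enough to be tested. Il20rb encodes the receptor chain through which IL-24 signals, and it rose from 4.62, 4.99 and 4.52 CPM in Veh to 7.56, 6.88 and 6.67 CPM in GSK, by 0.58 on the log2 scale (SE 0.15, adjusted p = 0.0091, edgeR), just under the limit on fold, which it passed without Veh replicate 2 (0.62), GSK replicate 2 (0.59) or GSK replicate 3 (0.61). With all samples, 0 genes of the list were called by edgeR or DESeq2, where edgeR called 6.32% of all genes tested. The 1 gene tested by edgeR, Il20rb, had an unadjusted p under 0.05, as did 5026 of the 11698 genes tested. Transcripts of the chains that pair with IL-20RB were nearly absent, with 0 to 2 reads of Il20ra and 2 to 9 reads of Il22ra1 per sample. Ifnlr1 had 0 to 6 reads per sample.

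Of the 38 genes listed as known regulators of Il10 other than the members, 37 were tested, and the remaining entry, Prep1, is another name of Pknox1, which the list also holds. By the adjusted p without the fold limit, 6 were higher and 16 lower (16.6% and 15.5% of all genes), with a median log2 fold change of -0.10 against -0.0039 over all genes tested. At both limits, 2 were called higher and 4 lower (2.22% and 4.09% of all genes). Eomes, a T-box factor that drives Il10 in some CD4 and CD8 effector cells, rose from 204 ± 9.38 CPM (SD, n = 3) to 433 ± 17.7 CPM (SD, n = 3), a log2 fold change of 1.08 (SE 0.047, adjusted p = 1.5e-08, edgeR). Egr2, a factor induced by T cell receptor signals, was at 0.816, 1.13 and 1.63 CPM in Veh and 2.57, 1.67 and 2.55 CPM in GSK (log2 fold change 0.92, SE 0.31, adjusted p = 0.039, edgeR). DESeq2 did not call it (adjusted p = 0.071). The call was also lost without Veh replicate 1 (adjusted p = 0.14), Veh replicate 2 (0.099), GSK replicate 1 (0.14) or GSK replicate 3 (0.11).

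The called genes that fell encode factors of T cell lineages and fate. Gata3, which opens the Il10 locus in helper cells of type 2, had 38.7, 35.4 and 41.7 CPM in Veh and 20.2, 23.8 and 18.1 CPM in GSK (log2 fold change -0.90, SE 0.099, adjusted p = 6.0e-05, edgeR). Rora fell by 0.70 (SE 0.084, adjusted p = 8.2e-05), Tbx21, which encodes T-bet, by 0.64 (SE 0.071, adjusted p = 4.6e-05), and Bach2 fell by 0.63 (SE 0.092, adjusted p = 6.8e-04). The fold of Bach2 came under the limit without Veh replicate 1 (-0.58), GSK replicate 1 (-0.58) or GSK replicate 3 (-0.56). In each of the 4 genes, every GSK sample lay below every Veh sample, as was so for 23% of all genes tested. The 4 genes were picked by their calls, so this separation is a description and adds no support. The regions of Eomes, Egr2, Gata3, Rora and Bach2 overlap predicted or non-coding genes, so their counts are uncertain there.

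Other regulators, again chosen after their values were seen, changed less or did not pass. Irf4, an activator of Il10 downstream of the T cell receptor, rose by 0.55 on the log2 scale (SE 0.057, adjusted p = 3.3e-05, edgeR), and passed the limit on fold only without Veh replicate 2 or GSK replicate 3 (0.60 each). Bhlhe40, a repressor of Il10, fell by 0.42 (SE 0.055, adjusted p = 1.6e-04). The other uncalled regulators past the adjusted p (edgeR) went both ways. Nfatc2 rose by 0.28, Elavl1 by 0.31 and Notch1 by 0.13. Zfp36l1 fell by 0.42, Smad3 by 0.38, Stat4 by 0.36, Jun by 0.34 and Fosl2 by 0.31. Runx3 fell by 0.29, Creb1 by 0.25, Zfp36l2 by 0.20, Ets1 by 0.18, Junb by 0.17 and Stat6 by 0.13. Notch1 did not pass in 6 of 11 alternatives, Jun and Stat6 in 4, Junb in 3 and Ets1 in 1. Prdm1, which encodes BLIMP-1, an activator of Il10, had a log2 fold change of -0.093 (SE 0.099, adjusted p = 0.51, edgeR), and Batf had -0.046 (SE 0.069, adjusted p = 0.64).

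Of 12 partners and targets of AHR, 9 were tested. By the adjusted p without the fold limit, 4 rose and 1 fell (16.6% and 15.5% of all genes). The median log2 fold change was 0.14, against -0.0039 over all genes tested. At both limits, 1 was called, where 6.32% of all genes were in either direction. The 1 called gene was Nqo1, a detoxifying enzyme that is also a target of NRF2, which rose from 8.59, 6.76 and 7.78 CPM in Veh to 12.2, 11.6 and 14.3 CPM in GSK (log2 fold change 0.72, SE 0.13, adjusted p = 0.0012, edgeR). Tiparp, a direct AHR target chosen after its values were seen, fell by 0.55 on the log2 scale (SE 0.080, adjusted p = 3.1e-04, edgeR), less than 1.5-fold except without GSK replicate 3 (-0.60). Cyp1a1, the standard readout of AHR activity, had 0 to 3 reads per sample, Aldh3a1 had 0 to 3 and Cyp1b1 2 to 9, which were too few to test.

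**Figure D4:**
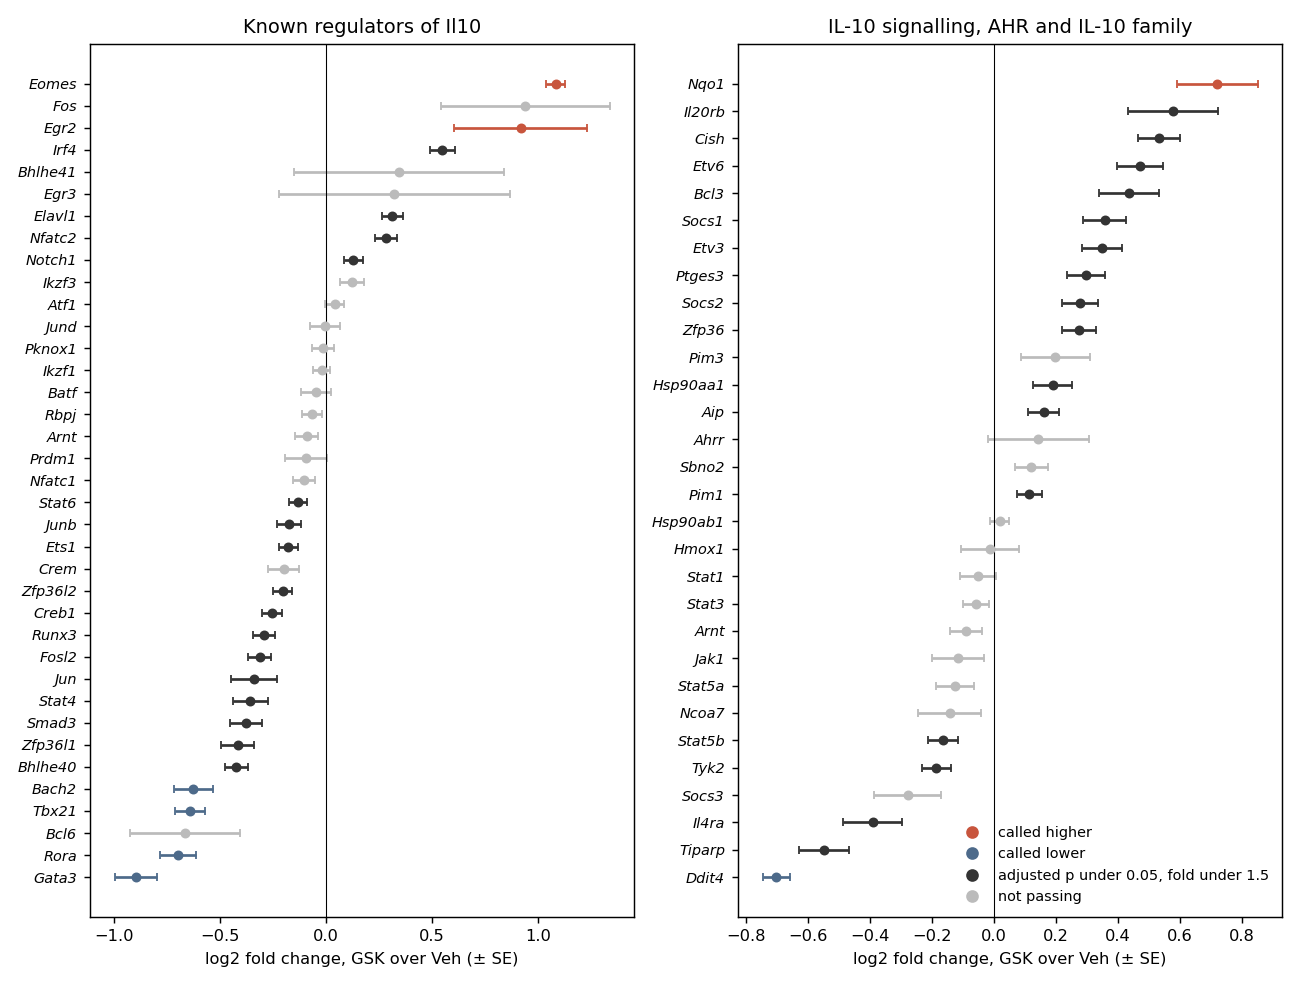
Log2 fold change of GSK over Veh with its standard error for the 37 tested genes of the regulator list (left) and for the tested genes of the IL-10 signalling, AHR and IL-10 family lists (right). Called genes are red (higher) or blue (lower), genes past the adjusted p alone are black and the rest are grey, with Eomes at 1.08 and Gata3 at -0.90 as the ends of the left panel.

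Il10 and Fcmr are also expressed by other cells that a spleen preparation could hold, and the markers of these cells were read beside them. For B cells, the 12 markers summed to 35.6 to 36.2 CPM in Veh and 29.6 to 42.1 CPM in GSK. Of the defining markers, Pax5 had 0 or 1 read per Veh sample and 1 to 6 per GSK sample. Cd79a had 0 to 3 reads in Veh and 5 to 11 in GSK, and Ms4a1 0 to 2 and 4 to 8, too few to test, beside 23 to 54 reads of Fcmr. Cd79b, with more reads, had 105 to 139 in Veh and 89 to 101 in GSK (log2 fold change -0.41, SE 0.16, adjusted p = 0.070, edgeR). Of the list, 6 genes were tested and 3 were called, where 6.32% of all genes were. Cd22, an inhibitory co-receptor of B cells, rose from 4 to 11 reads in Veh to 44 to 54 reads in GSK (log2 fold change 2.65, SE 0.35, adjusted p = 1.5e-04, edgeR). Cd74, the invariant chain of MHC class II, rose from 135 to 184 reads to 293 to 411 (log2 fold change 1.17, SE 0.15, adjusted p = 1.9e-04, edgeR). H2-Ab1, a chain of MHC class II, fell by 1.19 on the log2 scale (SE 0.31, adjusted p = 0.034), a call lost without any single Veh sample (adjusted p from 0.078 to 0.10) or without GSK replicate 1 (0.073). H2-Aa, another chain of MHC class II, had 0.56 (SE 0.35, adjusted p = 0.24, edgeR) and Bank1 0.071 (SE 0.34, adjusted p = 0.89), and neither passed. The part of B cells in the values of Fcmr and Il10 was not tested.

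For myeloid cells, 11 markers summed to 14.0 to 17.8 CPM in Veh and 13.6 to 16.6 CPM in GSK. Csf1r, Adgre1, Cd14, Clec7a and Mpo had under 10 reads in every sample. Cd68 had the most reads of the list, with 141 to 201 in Veh and 166 to 207 in GSK. Fcer1g had 28 to 67 and 42 to 52 reads, Itgam 39 to 50 and 19 to 38, and Lyz2 2 to 27 and 2 to 13. With all samples, Cd68, Fcer1g, Itgam and Lyz2 did not pass (adjusted p = 0.74, 0.78, 0.073 and 0.29, edgeR). Their log2 fold changes were 0.076, -0.12, -0.70 and -1.30. Tyrobp, an adaptor also used by NK receptors, had 2 to 11 reads in Veh and 13 to 21 in GSK (log2 fold change 1.43, SE 0.51, adjusted p = 0.047, edgeR), a call that DESeq2 did not make (adjusted p = 0.11) and that was lost in 7 of 11 alternatives. The 5 markers of CD4 and regulatory T cells summed to 68.8 to 82.3 CPM in Veh and 59.4 to 60.6 CPM in GSK. These sums did not overlap, where 23% of single genes were lower in GSK without overlap. Most of the sum was Zbtb7b, at 38.8, 38.2 and 49.4 CPM in Veh and 33.7, 38.9 and 40.3 CPM in GSK. Zbtb7b itself overlapped and did not pass (log2 fold change -0.16, SE 0.10, adjusted p = 0.27, edgeR). Ikzf2, the next most abundant of the 5, fell from 24.7, 27.1 and 29.2 CPM in Veh to 18.7, 16.9 and 14.1 CPM in GSK. This was a fall by 0.71 on the log2 scale (SE 0.10, adjusted p = 3.7e-04, edgeR). Foxp3, the factor of regulatory T cells, had 32 to 78 reads in Veh and 53 to 95 in GSK (log2 fold change 0.12, SE 0.35, adjusted p = 0.82, edgeR). Cd40lg rose from 4 to 15 reads to 22 to 29 (log2 fold change 1.52, SE 0.44, adjusted p = 0.018, edgeR). The call of Cd40lg was lost without Veh replicate 1 (adjusted p = 0.079), Veh replicate 3 (0.075) or GSK replicate 1 (0.081).

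Of the 5 NK cell markers, 4 were tested, and Eomes and Klri2 were called higher, where 2.22% of all genes were. The sum of the list was 206 to 226 CPM in Veh and 438 to 471 CPM in GSK, nearly all of it Eomes, which activated CD8+ T cells also express, while Ncr1, a defining marker, had 0 or 1 read. Klri2 rose from 25 to 49 reads to 87 to 114 (log2 fold change 1.38, SE 0.24, adjusted p = 9.2e-04, edgeR). Klre1 rose from 142 to 156 reads to 203 to 252 (log2 fold change 0.50, SE 0.13, adjusted p = 0.0093, edgeR). The change of Klre1 was less than 1.5-fold, and it did not pass without GSK replicate 1 (adjusted p = 0.056). Klrb1c had 29 to 44 reads in Veh and 46 to 70 in GSK (log2 fold change 0.54, SE 0.26, adjusted p = 0.13). The mast cell and basophil markers summed to 5.38 to 6.54 CPM in Veh and 3.55 to 5.72 CPM in GSK. Most of this was Kit, with 97 to 123 reads in Veh and 62 to 108 in GSK. Kit did not pass (log2 fold change -0.53, SE 0.21, adjusted p = 0.072, edgeR), although it did with no filter on low counts (0.049). Cpa3 had 0 to 5 reads, Mcpt8 0 to 6 and Gata2 0 or 1. The part of these cells in the values of Il10 was not tested.

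**Figure D5:**
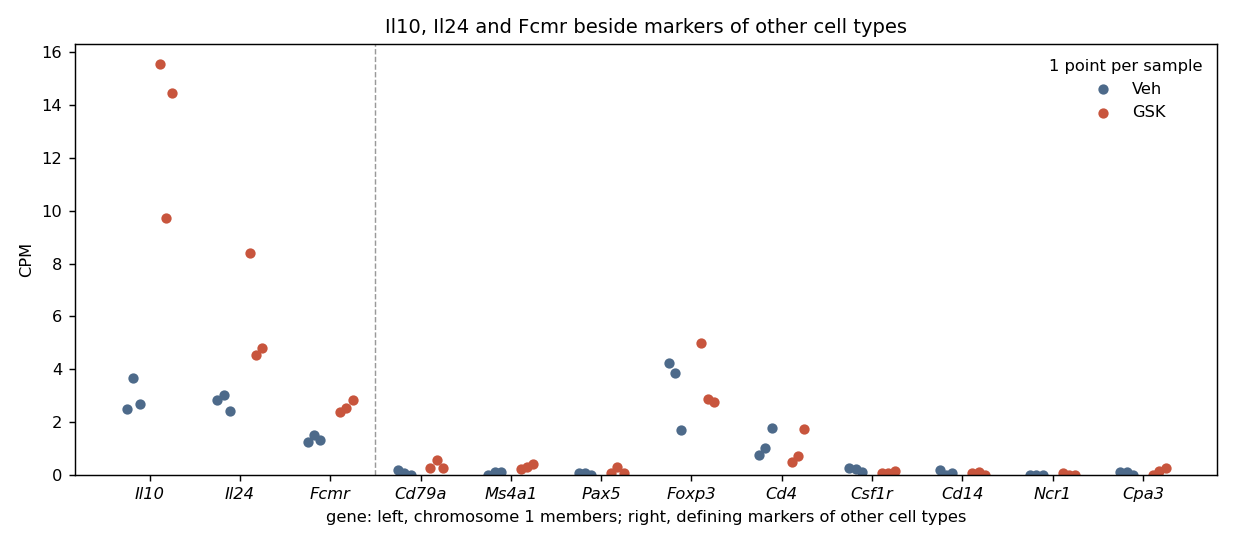
CPM of Il10, Il24 and Fcmr (left of the dashed line) and of a selection of markers (right), 1 point per sample. The markers are of B cells, CD4 and regulatory T cells, myeloid cells, NK cells and mast cells. Il10 reaches 15.5 CPM in GSK, and Cd79a, Ms4a1, Pax5, Csf1r, Cd14, Ncr1 and Cpa3 stay under 1 CPM in every sample. Cd4 reaches 1.79 CPM in Veh and Foxp3 4.99 CPM in GSK. Listed markers not shown include higher ones, with Cd74 at up to 21.6 CPM in GSK. In Veh, Cd68 reaches 10.9 CPM, Cd79b 7.56 CPM and Kit 6.46 CPM.

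Across the 6 samples, the genes whose log2 CPM followed that of Il10 most closely were Pom121, a nuclear pore protein (Pearson's r = 0.998), Ncbp2, a cap-binding protein (0.998), Noc3l, a factor of ribosome assembly (0.998), Hmcn2 (0.998) and Abce1, a ribosome recycling factor (0.997). This is a description over 6 points that share the treatment and the libraries, and it was taken over 11697 genes. Their differences were far smaller than that of Il10, with log2 fold changes of 0.20 for Pom121, 0.33 for Ncbp2, 0.49 for Noc3l, 0.63 for Hmcn2 and 0.42 for Abce1. None of these 5 genes is a neighbour of Il10 or a member of the lists. By Spearman's rho, 111 genes had the same order of samples as Il10, among them Noc3l and Hmcn2.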

How the data were processed

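RNA of 3 GSK and 3 Veh samples was measured by stranded, paired-end sequencing of polyadenylated RNA. The authors trimmed the reads with Trimmomatic, mapped them to GRCm38 with hisat2 (version 2.1.0) and assigned them to genes with HTSeq-count (version 0.11.2), and the deposited values are these whole counts, not normalized. The annotation release and the strand setting of the counting are not given in the sources used here. Totals per sample lay between 18288447 and 19846720.

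Groups were compared in R (version 4.3.3) by edgeR's robust quasi-likelihood test (version 4.0.16) with TMM scaling, filterByExpr and p-values adjusted after Benjamini and Hochberg over the 11698 genes that passed the filter, and never over a list. Standard errors were derived from the test statistic. CPM use TMM-scaled totals, and log2 CPM for likeness to Il10 used a prior count of 2. Coordinates came from a GRCm38.p6 RefSeq table, which matched 99.5% of rows by Entrez identifier, and exon lengths from GENCODE M21. The test was checked on simulated counts.

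The members and lists were chosen with earlier results of these data known. Named are the 10 members, tested genes within 500 kb of Il10, genes of each list past both limits (up to 6 by smallest p in each direction) with those too low to test, and the 5 genes most like Il10. Markers are named where the cell types are checked, and other genes outside this rule were chosen after their values were seen. Alternatives were DESeq2 (version 1.42.0), scaling by RLE, no filter on low counts or a minimum mean count of 10, the replicate number as a block, a call by adjusted p without the fold limit, and each sample left out in turn. Other assays of the study were not analysed here. Of the lists, 2 genes are not reported here.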

Additional observations from a re-analysis of the deposited data

How the results depend on the processing

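The log2 fold changes of the 5 tested genes (Il10ra, Il10rb, Maf, Nfil3 and Ahr) kept their sign and their side of the adjusted p threshold under DESeq2, RLE size factors, both other filters, the replicate block and each left-out sample, with the exception of the sign of Il10ra, which ranged from -0.074 to 0.058 when a sample was left out. With the adjusted p alone, 1941 genes were higher and 1819 lower in place of 260 and 479. The neighbours of Il10 past the limit went from 0 to 1, the IL-10 family list from 0 to 1, the IL-10 signalling list from 1 to 12, the regulator list from 6 to 22 and the AHR list from 1 to 5, since the limit on fold change was dropped. With a sample left out, calls ranged from 0 to 1 in the IL-10 family list, from 1 to 2 in the IL-10 signalling list and from 1 to 2 in the AHR list. The genes gained were Il20rb, Cish and Tiparp in this order, which lie close to the 1.5-fold limit. The regulator list ranged from 4 to 7 calls.

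With the replicate block, 253 genes were called higher and 447 lower, and 5 in the regulator list, where Egr2 was lost (adjusted p = 0.052, edgeR). With it, Socs3 passed the adjusted p (0.033) and Srgap2 did too (0.042), and no call among the 5 tested genes changed. After the group means were removed, samples with the same number correlated at -0.052, -0.081 and 0.16, and 2 of the 6 samples were closest to the sample of their own number, so the numbers were not taken as pairs. At this depth, Il19, Il20ra, Ifnlr1, Cyp1a1 and Aldh3a1 could not be compared, and Fcmr and Ahr rest on at most 54 reads per sample. No sample was tested as an outlier, since that needs 4 or more per group.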
